A study of Mus musculus with 4 samples.

Results

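MyD88 and the IRAK-TRAF6 proteins carry the signal of the IL-33 receptor into the cell, and their 10 genes are described here in group 2 innate lymphoid cells (ILC2s), lymphocytes without antigen receptors that release type 2 cytokines. The genes were taken by symbol as the core of the pathway, by a rule that uses no measured value but was written with earlier results of these data known: the adaptors Myd88 and Tirap, the kinases Irak4, Irak1, Irak2 and Irak3, the regulator Tollip, the ubiquitin ligase Traf6, and the kinase Map3k7 (TAK1) with its partner Tab2. All 10 were among the 24537 genes in the files, and all 10 passed the minimum mean of 2 RPKM (reads per kilobase of exon, scaled to the mapped reads of the library) that left 9523 genes for testing.

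The cells were sorted from bronchoalveolar lavage (BAL) fluid of mice that report Gata3 transcription through YFP, as lineage-negative Sca-1+ YFP+ cells, 1 day after the final challenge. For IL-33, 2 libraries came from mice given 3 doses of 0.5 µg, by a route that the methods give as intranasal or intratracheal. For chronic house dust mite (HDM), an allergen extract, 2 libraries came from mice given 25 µg intranasally 3 times a week for 5 weeks. The labels give homozygous Gata3-YFP/YFP mice and CD25High cells for IL-33, and heterozygous Gata3-YFP/WT mice and CD25Low cells for HDM, whereas the methods describe homozygous reporter mice only and no CD25 gate. Stimulus, duration, reporter genotype and CD25 label move together over the 2 groups and cannot be told apart, and no unchallenged group was analysed here. The number of mice behind a library is not given in the sources used here, so p-values measure the spread between libraries, which may be technical.

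The IL-33 receptor (ST2), the receptors for IL-1 and IL-18 and most Toll-like receptors share an intracellular TIR domain that recruits MyD88. MyD88 assembles IRAK4 with IRAK1 or IRAK2 into a complex called the Myddosome, which hands the signal to TRAF6. TRAF6 builds ubiquitin chains that TAB2 binds, and the attached TAK1 then activates NF-kB and the MAP kinases. ILC2s in the airways depend on this route for their response to IL-33.

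Myd88 and Irak2 are abundant members whose libraries did not overlap between groups, Myd88 higher after IL-33 and Irak2 higher after chronic HDM. Such separation was common, with 41.7% of all tested genes separate in the first direction and 23.5% in the other. Neither gene passed the test used below. The sequences below are the stretches around their start sites. Each runs from 250 bases before to 50 bases after the start site (RefSeq, GRCm38.p6; Myd88 chr9:119339969-119340268 on the minus strand, Irak2 chr6:113638217-113638516 on the plus strand). Capitals mark overlapping matches to the core of an interferon-stimulated response element (GAAA, any 2 bases, GAAA) and to TTCNNNGAA, the palindrome bound by STAT proteins.
Myd88: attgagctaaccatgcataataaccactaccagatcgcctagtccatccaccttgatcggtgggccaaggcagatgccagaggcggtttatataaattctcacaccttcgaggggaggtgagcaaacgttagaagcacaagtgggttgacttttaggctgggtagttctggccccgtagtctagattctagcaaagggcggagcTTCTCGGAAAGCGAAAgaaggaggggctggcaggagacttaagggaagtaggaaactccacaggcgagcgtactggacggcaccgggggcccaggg
Irak2: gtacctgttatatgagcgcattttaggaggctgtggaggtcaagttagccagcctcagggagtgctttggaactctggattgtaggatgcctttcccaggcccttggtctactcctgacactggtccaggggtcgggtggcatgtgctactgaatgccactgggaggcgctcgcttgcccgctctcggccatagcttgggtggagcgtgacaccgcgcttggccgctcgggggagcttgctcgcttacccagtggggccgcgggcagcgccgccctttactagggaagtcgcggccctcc

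All 10 genes had such a promoter entry (14 entries in all), and both strands were searched. The interferon-stimulated core was found in 1 of the 10 genes, Myd88, beginning at position -40 from the start site, and in 3.44% of the 32851 promoters of the table. The palindrome TTCNNNGAA was found in Myd88 as well, at -46, and in 8.30% of all promoters. A decamer of the kappaB type was found in Map3k7 only among the 10, at -92 on the minus strand, against 4.51% of all promoters, and the AP-1 motif TGANTCA in none of the 10, against 7.81%. The Irak2 stretch held none of the 4 motifs. A match is a description of letters and no evidence of binding.

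Chronic HDM replicate 1 stood apart from the other libraries and touches several of the results. In it 588 of the 9523 tested genes had no read, against 71 in each IL-33 library and 205 in chronic HDM replicate 2. Across tested genes the IL-33 pair correlated at r = 0.975 and the HDM pair at r = 0.825 (genes are not independent replicates). Mapped reads ranged from 11743268 to 19224047 per library, and 45S ribosomal RNA took 3.45 to 4.95% of gene reads after IL-33 but 17.4 and 25.4% after HDM. The 16 ILC2 markers were detected in every library, with a summed level of 3587 to 4488 RPKM. Genes listed as markers of other cells were detected as well, although the methods give a lineage gate against CD11b, CD11c and FceRIa among others. The 13 macrophage markers summed to 1246 and 286 RPKM in the IL-33 libraries and to 3108 and 8523 RPKM in the HDM libraries, almost all of it Chil3 and Lyz2, with Fcgr1 at 0 throughout. The 7 dendritic cell markers, led by H2-Ab1 and Ccr7, summed to 1282 and 1246 RPKM against 71.6 and 91.3 RPKM, with Flt3, Clec9a and Cd209a at 0 to 0.305 RPKM in the IL-33 libraries, and the 6 basophil or mast cell markers, led by Mcpt8, to 52.3 and 44.6 RPKM against 0 and 2.87 RPKM. Which cells these transcripts came from, and their part in the values below, was not tested. As checks of the labels, Il2ra (CD25) had 432 and 376 RPKM after IL-33 against 27.6 and 22.0 RPKM after HDM, and Gata3 had 14.9 and 18.9 RPKM against 216 and 195 RPKM.

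Myd88 was the most abundant of the 10 transcripts in every library and the member whose difference was largest relative to its error. None of the 10 passed the test in either direction (limma on log2(RPKM + 1), adjusted p under 0.01 by Benjamini-Hochberg over all tested genes and an absolute log2 fold change over 1). Over all tested genes, 2.80% were called higher after IL-33 and 0.536% higher after chronic HDM, 3.34% in all. At an unadjusted p under 0.05 the count was 1 of 10, Myd88, beside 3499 of the 9523 tested genes. Limma-voom on recovered read counts called 0, with an unadjusted p under 0.05 for 2, a count without a share over all genes here. In 4 members (Myd88, Irak1, Tirap and Tab2) both IL-33 libraries lay above both HDM libraries, against 41.7% of all tested genes, and in 2 (Irak2 and Irak4) both HDM libraries lay above, against 23.5%. The other 4 overlapped, so that 6 of 10 were separate, against 65.2% of all tested genes in either direction. The members' median log2 fold change was 0.29, beside 0.28 over all tested genes.

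**Figure D1:**
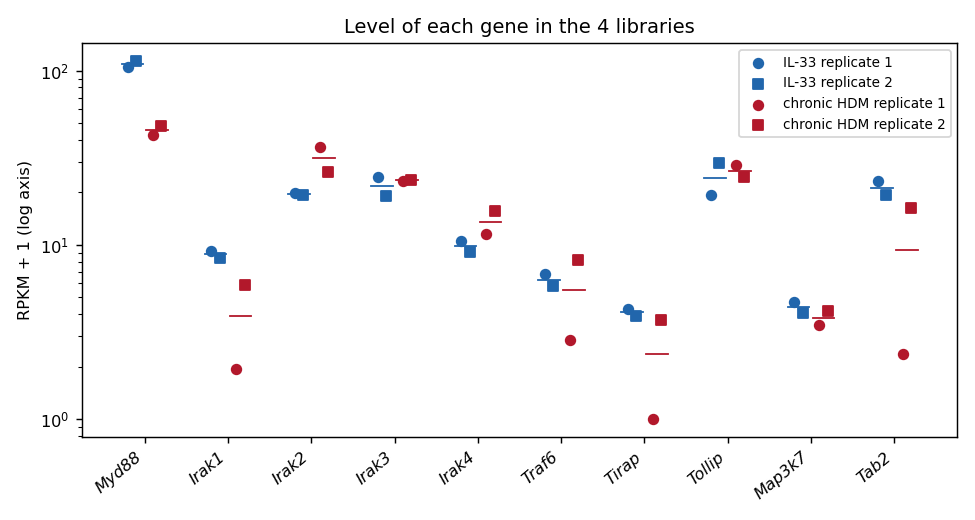
Level of each of the 10 genes in the 4 libraries, as RPKM + 1 on a log axis, with a short line at each group mean. Myd88 lies at 104 and 112 RPKM with IL-33 against 41.9 and 46.9 RPKM with chronic HDM, whereas Tab2, Irak1, Traf6 and Tirap show a low point for chronic HDM replicate 1.

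Myd88, the adaptor on which the whole complex is built, had 104 and 112 RPKM in the IL-33 libraries and 41.9 and 46.9 RPKM in the HDM libraries. Both IL-33 libraries were above both HDM libraries, and the members of each pair were close, within 1.07-fold and 1.12-fold. The means were 108 ± 5.49 and 44.4 ± 3.52 RPKM (SD, n = 2 each), a 2.44-fold difference. The paper, which tested with DESeq2 at the same cut-offs as here, named Myd88 as prominent after IL-33. It reported more differentially expressed genes in each direction than the 267 (higher after IL-33) and 51 (higher after HDM) that limma called here. In the limma fit used here the log2 fold change was 1.27 with an SE of 0.21 (95% interval 0.75 to 1.79). Its adjusted p of 0.0163 in limma missed the threshold of 0.01. Over all tested genes, 13.8% had an adjusted p under 0.05 with a log2 fold change over 1 in this direction and 4.78% in the other, and Myd88 stood at place 709 of 9523 by p. Without chronic HDM replicate 1 the value was 1.19 (limma, adjusted p = 0.00301) and without replicate 2 it was 1.35 (limma, adjusted p = 0.00318), both past the threshold, in fits where the spread comes from the IL-33 pair. Leaving out an IL-33 library gave 1.32 and 1.22 with adjusted p-values in limma of 0.326 and 0.308, where the spread comes from the less alike HDM pair. Myd88 (NM_010851) lies on chromosome 9 at 119335988-119340040 of mm10, on the minus strand, with 1897 exonic bases counted. In the fuller GENCODE M21 annotation, 290 of its 2576 exonic bases (11.3%) are shared with Acaa1a on the opposite strand, and since the reads carry no strand, those of the 2 genes cannot be told apart there.

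The median of all genes moved from 0.28 to 0.07 on the log2 scale when RPKM values were rescaled by median-of-ratios, a shift of the same order as some of the members' differences. Under that scaling Myd88 had a log2 fold change of 1.04 (limma, adjusted p = 0.0319) and Irak2 one of -0.89 (limma, adjusted p = 0.0853). Quantile normalization, which brought that median close to 0, gave Myd88 0.76 (limma, adjusted p = 0.0725), the lowest of its values and under the fold threshold of 1. No scaling turned the direction of any of the 10 genes.

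Tirap encodes a sorting adaptor that brings MyD88 to Toll-like receptors at the membrane. It had 3.30 and 2.90 RPKM with IL-33, from 202 and 159 reads, against 0 and 2.71 RPKM with chronic HDM, from 0 and 233 reads. The groups did not overlap, but chronic HDM replicate 2 lay just under the IL-33 libraries, and only replicate 1 was far below them. A count of 0 in replicate 1 allows up to 0.0334 RPKM, a limit that covers counting error only since these reads carry no molecular identifiers. The log2 fold change of 1.09 had an interval that reached from -0.82 across 0 (SE 0.76, limma, adjusted p = 0.352). The log2 fold change was 0.14 without chronic HDM replicate 1 and 2.03 without replicate 2. The 0 makes the value depend on the scale as well: it was 2.59 with a pseudocount of 0.1 and 4.57 in limma-voom, neither of them called. Tirap was the lowest of the 10 in every library. The gene lies on chromosome 9 at 35184391-35199905 of mm10, on the minus strand.

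Irak4, the kinase that acts first in the Myddosome, had 9.54 and 8.09 RPKM with IL-33 against 10.5 and 14.5 RPKM with chronic HDM. Both HDM libraries lay above both IL-33 libraries, with a narrow gap between HDM replicate 1 and IL-33 replicate 1. The log2 fold change was -0.45 with an interval of -1.36 to 0.46 (SE 0.36, limma, adjusted p = 0.418). It was -0.67 without chronic HDM replicate 1 and -0.23 without replicate 2. Irak4 lies on chromosome 15 at 94543660-94568316 of mm10, on the plus strand.

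Irak1 is the kinase that IRAK4 phosphorylates and that then carries TRAF6 away from the receptor. It had 8.23 and 7.43 RPKM with IL-33 (411 and 333 reads) against 0.927 and 4.90 RPKM with chronic HDM (68 and 344 reads). Both HDM libraries were below the IL-33 libraries, and they differed 5.29-fold from each other. The means of 7.83 ± 0.56 and 2.91 ± 2.81 RPKM (SD, n = 2 each) gave a log2 fold change of 1.39 with an interval of -0.22 to 2.99 (SE 0.64, limma, adjusted p = 0.181). Without chronic HDM replicate 1 the log2 fold change was 0.58, and with that library as the only HDM library it was 2.19. Irak1 lies on chromosome X at 74013918-74023921 of mm10 on the minus strand. Among the transcripts as counted in the files, only its span overlapped other genes, Mir718 and Mir5132, which had 0 reads in every library. By GENCODE M21 exons, opposite-strand genes also share 485 bases (9.84%) with Tirap, 220 (5.98%) with Irak3 and 196 (4.44%) with Irak2.

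Irak2, a relative of IRAK1 that keeps TRAF6 active late in a response, went the other way. It had 18.7 and 18.3 RPKM with IL-33 against 35.7 and 25.1 RPKM with chronic HDM. Both HDM libraries were higher, and in both of them Irak2 was the next transcript in level after Myd88. The means were 18.5 ± 0.291 and 30.4 ± 7.48 RPKM (SD, n = 2 each), 1.64-fold higher after HDM, with a log2 fold change of -0.66 and an interval of -1.42 to 0.09 (SE 0.30, limma, adjusted p = 0.176). It was -0.42 without chronic HDM replicate 1 (limma, adjusted p = 0.177), so that here the library that stood apart held the higher of the HDM levels. Irak2 lies on chromosome 6 at 113638467-113695027 of mm10, on the plus strand.

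Irak3 encodes IRAK-M, a member of the family without normal kinase activity that restrains the Myddosome. Its levels were 23.4 and 18.0 RPKM with IL-33 against 22.3 and 22.5 RPKM with chronic HDM. The HDM values fell between the IL-33 values, and the log2 fold change of -0.12 had an interval of -0.85 to 0.61 (SE 0.29, limma, adjusted p = 0.798). Irak3 lies on chromosome 10 at 120141654-120201537 of mm10, on the minus strand.

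Tollip, which binds IRAK1 and dampens signalling by Toll-like and IL-1 family receptors, had 18.2 and 28.5 RPKM with IL-33 against 27.7 and 23.4 RPKM with chronic HDM. The groups overlapped, and Tollip was the member with the largest difference within the IL-33 pair, 1.56-fold. The log2 fold change was -0.15 with an interval of -0.98 to 0.67 (SE 0.33, limma, adjusted p = 0.768). Tollip lies on chromosome 7 at 141881585-141902406 of mm10, on the minus strand.

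Traf6, the ubiquitin ligase that receives the signal from the IRAK kinases, had 5.80 and 4.79 RPKM with IL-33 (454 and 336 reads) against 1.83 and 7.14 RPKM with chronic HDM (210 and 785 reads). The IL-33 values lay between the HDM values, which differed 3.91-fold. The log2 fold change was 0.39 with an interval of -1.17 to 1.94 (SE 0.62, limma, adjusted p = 0.690), and its sign turned to -0.38 without chronic HDM replicate 1. Traf6 lies on chromosome 2 at 101678420-101701668 of mm10, on the plus strand.

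Tab2, the subunit that ties TAK1 to ubiquitin chains, had the widest interval of the 10. Its levels were 22.3 and 18.2 RPKM with IL-33 (1247 and 913 reads) against 1.35 and 15.3 RPKM with chronic HDM (111 and 1203 reads). Both HDM libraries were below the IL-33 libraries, with an 11.3-fold difference between them. The log2 fold change was 1.77 with an interval of -0.50 to 4.04 (SE 0.91, limma, adjusted p = 0.218). It was 0.37 without chronic HDM replicate 1 and 3.17 without replicate 2. Tab2 lies on chromosome 10 at 7905648-7956123 of mm10, on the minus strand.

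Map3k7, the kinase TAK1 itself, had 3.68 and 3.05 RPKM with IL-33 against 2.45 and 3.15 RPKM with chronic HDM. The groups overlapped at a low level, and the log2 fold change of 0.20 had an interval of -0.96 to 1.37 (SE 0.47, limma, adjusted p = 0.785). With a library left out it ran from 0.070 to 0.34, and after rescaling from 0.015 to 0.027. Per length, Map3k7 was thus below its partner Tab2 in 3 of the 4 libraries and above it in chronic HDM replicate 1. Map3k7 lies on chromosome 4 at 31964107-32023466 of mm10, on the plus strand.

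**Figure D2:**
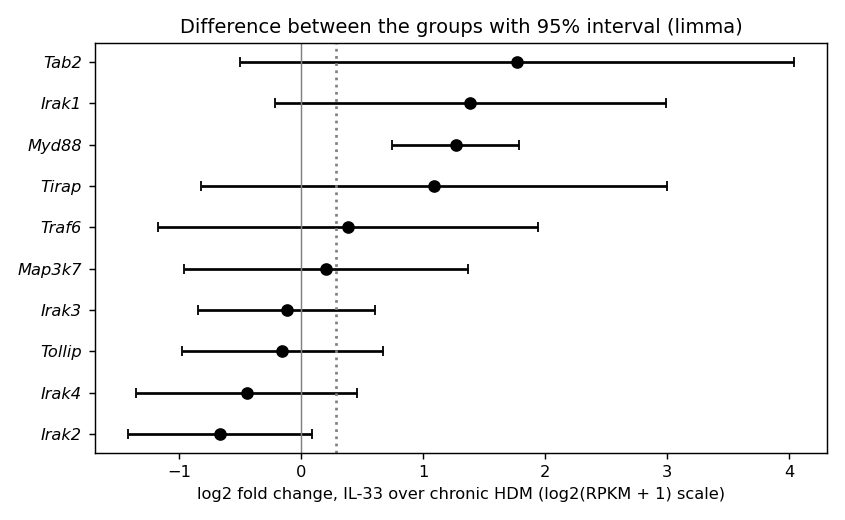
Log2 fold change of each gene, positive where IL-33 was higher, from log2(RPKM + 1) values, with its 95% interval from limma. The solid line marks 0 and the dotted line the median of all tested genes, 0.28. The interval of Myd88 (0.75 to 1.79) lies above 0, and those of the other 9 genes reach across it.

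The members that spread most over the HDM pair were low in the same library. Within the IL-33 pair no member differed more than 1.56-fold. Within the HDM pair 8 of the 10 genes were lower in replicate 1, and 4 of them (Tab2, Irak1, Traf6 and Tirap) were over 2-fold lower, as were 17.1% of all tested genes. The share of all tested genes lower in replicate 1 by any amount was not computed, so the 8 of 10 has no background. Irak2 and Tollip were the exceptions, higher in replicate 1. In bulk RNA, fewer transcripts per cell and fewer cells that hold the transcript cannot be told apart.

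The order of levels within the pathway was steep at the top. After IL-33, Myd88 (108 RPKM on average) was followed by Tollip, Irak3, Tab2 and Irak2 between 18.5 and 23.3 RPKM, whose library values overlapped one another. Irak4 (8.81 RPKM) and Irak1 (7.83 RPKM) overlapped as well, Traf6 lay below them at 5.29 RPKM, and Map3k7 (3.37 RPKM) and Tirap (3.10 RPKM) overlapped at the bottom. After chronic HDM the order was Myd88 (44.4 RPKM), Irak2 (30.4 RPKM), Tollip (25.5 RPKM), Irak3 (22.4 RPKM) and Irak4 (12.5 RPKM). The libraries of Irak2 and Tollip overlapped there, and Tab2, Traf6, Irak1, Map3k7 and Tirap followed with means from 8.34 down to 1.36 RPKM and overlapping values. Among all tested genes Myd88 stood at percentile 90.1 and 91.2 in the IL-33 libraries and at 79.8 and 85.2 in the HDM libraries.

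Myd88 alone made up 48.0 and 50.6% of the summed RPKM of the 10 genes in the IL-33 libraries, against 29.0 and 28.3% in the HDM libraries. Irak2 made up 8.61 and 8.27% against 24.7 and 15.1%, and Irak4 4.39 and 3.66% against 7.23 and 8.78%. The sum over the 10 genes was 217 and 221 RPKM with IL-33 against 145 and 166 RPKM with HDM. With Myd88 taken out, the other 9 genes summed to 113 and 109 RPKM and to 103 and 119 RPKM, so that the groups overlapped.

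**Figure D3:**
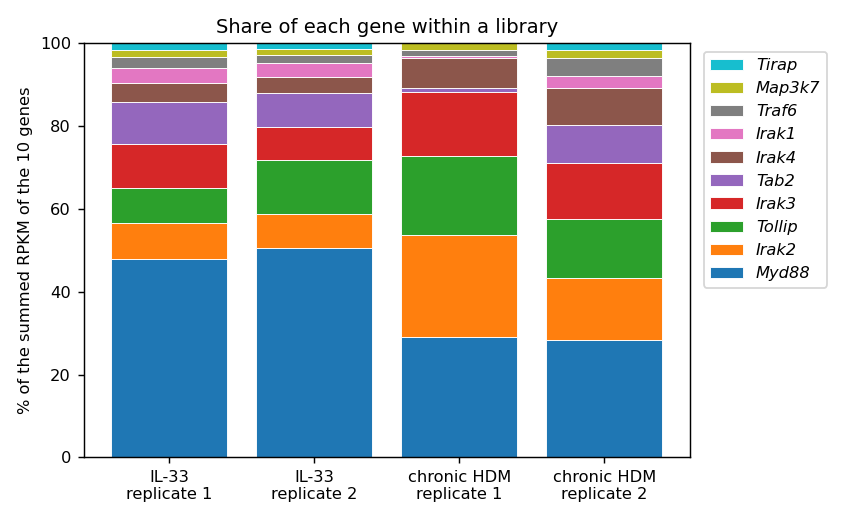
Share of each gene in the summed RPKM of the 10 genes, in percent, for each library. The bottom segment, Myd88, takes 48.0 and 50.6% with IL-33 against 29.0 and 28.3% with chronic HDM, and the segment above it, Irak2, is wider in both HDM libraries.

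Ratios of members within a library do not depend on how libraries are scaled, and 7 were computed. With 2 libraries against 2 the two-sided exact permutation p cannot go below 0.333, so the ratios are given as values. There were 10.9 and 13.9 Myd88 for each Irak4 (RPKM over RPKM) in the IL-33 libraries, against 4.01 and 3.22 in the HDM libraries, a difference of 1.78 on the log2 scale. Tollip to Myd88 was 0.174 and 0.254 against 0.662 and 0.498. Both ratios separated the groups, with the HDM libraries close to each other.

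Among the kinases, Irak2 to Irak1 was 2.28 and 2.46 with IL-33 against 38.5 and 5.12 with HDM, and Irak1 to Irak4 was 0.862 and 0.919 against 0.0886 and 0.337. The groups were separate in both ratios, yet the sizes rest on chronic HDM replicate 1: without it the log2 difference for Irak2 to Irak1 was -1.11 in place of -2.57. Irak3 to Irak4, the brake over the first kinase, was 2.45 and 2.23 against 2.13 and 1.55. Tab2 to Map3k7 was 6.06 and 5.97 against 0.552 and 4.86, and Tirap to Myd88 was 0.0317 and 0.0259 against 0 and 0.0579. The exact permutation p was 0.333 for 6 of the 7 ratios (0.389 adjusted over the 7) and 1 for Tirap to Myd88, whose groups overlapped.

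**Figure D4:**
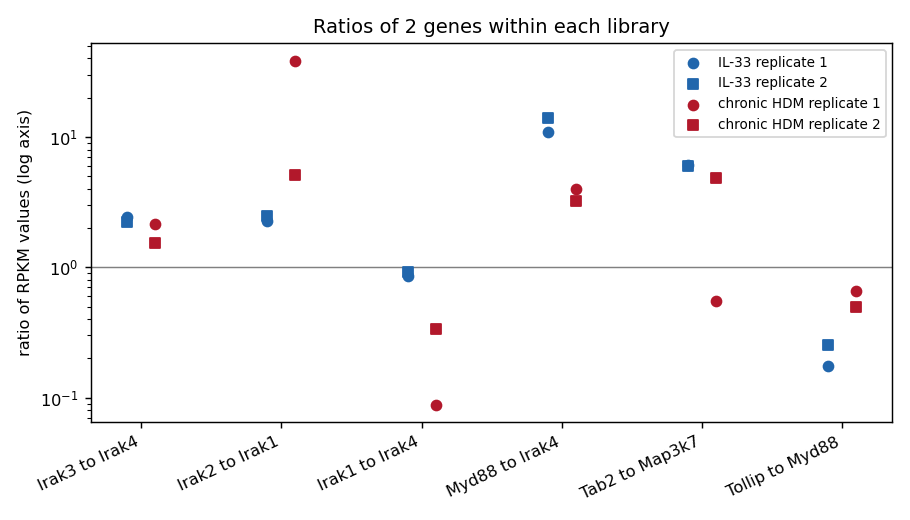
Ratios of the RPKM of pairs of member genes within each library, on a log axis, for the 6 ratios without a 0. Myd88 to Irak4 (10.9 and 13.9 against 4.01 and 3.22) and Tollip to Myd88 hold the HDM libraries together, whereas Irak2 to Irak1 and Tab2 to Map3k7 set chronic HDM replicate 1 apart.

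Around the 10 genes, 103 other genes of the pathway were listed in 10 groups, of which 83 were tested: 5 were called higher after IL-33, 5 were called higher after chronic HDM and 73 were not called. That is 6.02% of the 83 in each direction, beside 2.80% and 0.536% of all tested genes. The lists were chosen with earlier results of these data known and their counts support nothing by themselves. The calls also depend on the settings: limma-voom, a pseudocount of 0.1, no minimum level, the fit without the intensity trend and the fits without an IL-33 library called 0 genes of the whole table in either direction. Of the 17 receptors that use MyD88, 8 were tested and 1 was called. Il1rl1, which encodes ST2, was higher after HDM (216.7 and 204.8 RPKM) than after IL-33 (77.3 and 79.9 RPKM), with a log2 fold change of -1.41 (SE 0.18, limma, adjusted p = 0.00994), in the direction opposite to Myd88. These values are RNA. For the surface protein, the paper reports by flow cytometry less ST2 on BAL ILC2s after acute HDM than after IL-33. Of the 3 tested decoy and inhibitory receptors, Il1r2, which binds IL-1 without signalling, was called higher after IL-33 (709 ± 23.6 against 254 ± 25.2 RPKM, SD, n = 2 each, log2 fold change 1.48, limma, adjusted p = 0.00718).

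The intermediates between MyD88 and NF-kB gave no call. Ticam1, the adaptor TRIF and the only tested gene of 3 other TIR adaptors, had 5.13 and 5.42 RPKM with IL-33 against 3.41 and 4.41 RPKM with HDM, so that Myd88 was over it in every library. None of the 5 tested TRAF relatives, 9 ubiquitin ligases and conjugating enzymes, 8 TAK1 partners and IKK subunits or 12 MAP kinases passed. Closest to the threshold among those named by level was Ube2v1, a cofactor for the ubiquitin chains that TRAF6 makes, with 259 ± 30.6 against 94.0 ± 17.1 RPKM (SD, n = 2 each, limma, adjusted p = 0.0127). Sqstm1, a scaffold (p62) that binds TRAF6, had 529 ± 24.2 and 517 ± 85.4 RPKM. Traf2 had 83.1 and 35.5 RPKM on average (limma, adjusted p = 0.0532) and Traf7 76.5 and 39.0 RPKM (limma, adjusted p = 0.0465). Map3k8 had 59.4 and 68.3 RPKM with IL-33 against 30.6 and 19.4 RPKM with HDM (limma, adjusted p = 0.0348) and Ikbkb 31.2 and 54.3 RPKM on average (limma, adjusted p = 0.200). The MAP kinase kinase genes Map2k3 and Map2k2 had 59.3 and 44.8 RPKM on average after IL-33, and 85.8 and 79.2 RPKM after HDM. Lower in level, Ikbke had 4.78 and 28.5 RPKM on average (limma, adjusted p = 0.0152) and Mapk11 4.31 and 26.9 RPKM (limma, adjusted p = 0.0263). In these lists, in the order above, both IL-33 libraries lay above both HDM libraries in 2, 4, 2 and 2 genes (41.7% of all tested genes). Both HDM libraries lay above in 0, 1, 3 and 5 (23.5%).

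Among 13 tested brakes, 2 were called higher after HDM (0.536% of all tested genes were) and 1 higher after IL-33 (2.80%). Tnfaip3, which encodes the ubiquitin-editing enzyme A20 that takes chains off TRAF6, had 15.5 and 16.0 RPKM with IL-33 against 135 and 96.2 RPKM with HDM (log2 fold change -2.78, limma, adjusted p = 0.00687). Dusp1, a phosphatase of MAP kinases, had 31.8 ± 11.6 against 314 ± 55.2 RPKM (SD, n = 2 each, log2 fold change -3.30, limma, adjusted p = 0.00687). Tax1bp1, a partner of A20, went the other way with 254 and 238 RPKM against 79.9 and 70.8 RPKM (log2 fold change 1.70, limma, adjusted p = 0.00752). Of the 6 genes of the IRF arm, Irf7, a transcription factor that binds MyD88, was called higher after HDM (16.4 ± 4.91 against 106 ± 16.3 RPKM, SD, n = 2 each, log2 fold change -2.64, limma, adjusted p = 0.00844). The other 5 were not called. Among them Irf4, which the paper names beside Myd88 as prominent after IL-33, had 38.1 ± 2.15 against 8.07 ± 3.85 RPKM (SD, n = 2 each, log2 fold change 2.17, limma, adjusted p = 0.0204).

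At the far end, 18 genes listed as NF-kB subunits, inhibitors, targets or read-outs of ILC2 output were tested. Of these, 3 were called higher after IL-33 (2.80% of all tested genes were), 1 higher after HDM (0.536%) and 14 were not called. Their median log2 fold change was -0.40, beside 0.28 over all tested genes. Both libraries were higher after IL-33 in 6 (41.7% of all tested genes) and higher after HDM in 9 (23.5%). Nfkb1 had 171 ± 5.30 RPKM after IL-33 and 42.5 ± 1.39 RPKM after HDM, and Relb 19.9 ± 1.20 and 80.1 ± 0.123 RPKM (SD, n = 2 each, limma, adjusted p = 0.00687 and 0.00905). The cytokine gene Il5 had 682 ± 79.0 and 148 ± 4.26 RPKM (SD, n = 2 each, log2 fold change 2.20, limma, adjusted p = 0.00665). Il9 had 164 and 103 reads in the IL-33 libraries and 0 reads in both HDM libraries (limma, adjusted p = 0.00723).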

How the data were processed

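RNA of sorted ILC2s was amplified by Smart-seq2, which marks neither strand nor molecule. Per the labels and file headers, the authors aligned 51-base reads to mm10 with HISAT2 2.0.4, counted reads in RefSeq exons with HOMER and deposited RPKM values, 1 file per library. From RPKM and exon length, whole reads were recovered (within 0.1 read) for 99.8 to 99.9% of values. Genes averaging 2 RPKM or more were tested with limma 3.58.1 in R 4.3.3 (log2(RPKM + 1), intensity trend, two-sided, Benjamini-Hochberg), and called at an adjusted p under 0.01 with an absolute log2 fold change over 1. A fold change on this scale understates the change of low genes. The fit was checked on simulated data. All 10 members were named. From each pathway list up to 4 called genes by adjusted p, or with none called the 2 highest by mean RPKM, were named, with up to 2 leading marker genes per list and 3 label checks (Gata3, Il1rl1, Il2ra). Ikbke, Mapk11 and Irf4 were named outside this rule. Of the marker lists, those of T cells, B cells, neutrophils, eosinophils and epithelium summed to at most 104, 38.4, 14.1, 59.0 and 76.0 RPKM in any library. Siglec5 was not matched. Members, lists and thresholds were chosen with earlier results of these data known. Promoters were taken from RefSeq by symbol.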

Additional observations from a re-analysis of the deposited data

How the results depend on the processing

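Of 146 log2 fold changes of members under other settings, 137 kept their direction and their side of the threshold, 6 passed it anew and 3 turned. Under the settings that called 0 genes of the whole table, no member could pass, so none of those values could change its side. The 30 values of ratios have no threshold. With a pseudocount of 1 the ratios moved by less than the spread between libraries. Leaving out 1 library of a pair cannot move a mean beyond that spread, so it gives no check. The log2 difference with a library left out ran from 0.31 to 3.45 for Tab2 to Map3k7. It ran from -4.02 to -1.11 for Irak2 to Irak1 and from 1.61 to 1.95 for Myd88 to Irak4. The number of members called higher after IL-33 was 1 with the replicate number as a block, 1 with an adjusted p under 0.05 as the threshold, and 0 to 4 when 1 library was left out. The number called higher after chronic HDM was 0 under all 16 alternatives. With the replicate block the log2 fold change of Myd88 was 1.27 (limma, adjusted p = 0.00515). The replicate numbers are shared only as numbers: same-numbered libraries deviated from their group means with a correlation of -0.04, and the block raised the calls over all genes from 267 to 987 higher after IL-33 and from 51 to 267 higher after HDM. With 1 library left out, the log2 fold change ranged from 1.19 to 1.35 for Myd88, 0.58 to 2.19 for Irak1, 0.14 to 2.03 for Tirap, 0.37 to 3.17 for Tab2, -0.67 to -0.23 for Irak4, -0.91 to -0.42 for Irak2 and 0.070 to 0.34 for Map3k7. With 1 left out it turned sign within -0.30 to 0.058 for Irak3 (0.058 without IL-33 replicate 2), -0.38 to 1.15 for Traf6 (-0.38 without chronic HDM replicate 1) and -0.46 to 0.16 for Tollip (0.16 without IL-33 replicate 1). Rescaling took Irak3 to between -0.41 and -0.34, Tollip to between -0.46 and -0.38, and Traf6 to between 0.14 and 0.20. In fits with a lone library, that library is assumed to vary like the other group. Over the alternatives the adjusted p in limma ran from 0.00301 to 0.326 for Myd88 and from 0.0199 to 0.577 for Irak2. A minimum of 5 RPKM gave no value for Traf6, Tirap and Map3k7. Calls over all genes higher after IL-33 were 394 with a pseudocount of 2, 502 with a minimum of 5 RPKM, 148 after quantile normalization, 85 after median-of-ratios scaling and 84 after scaling without 45S RNA. They were 0 with a pseudocount of 0.1, no minimum, no intensity trend or limma-voom, and 0 without either IL-33 library, and 1881 and 1960 without an HDM library. Calls over all genes higher after chronic HDM were 76 with a pseudocount of 2, 107 with a minimum of 5 RPKM and 119 after quantile normalization. They were 40 after median-of-ratios scaling and 38 after scaling without 45S RNA. A pseudocount of 0.1, no minimum, no intensity trend and limma-voom gave 0 in that direction too. The causes were not tested.

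With 2 libraries a group, the interval of 9 members spans 0, and for Tab2, Irak1, Tirap and Traf6 it spans over 3 log2 units. Reads of these 4 genes in chronic HDM replicate 1 were 111, 68, 0 and 210.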
